A study of Mus musculus with 24 samples.

Results

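A module of 32 genes of cholesterol and fatty acid synthesis was followed across 24 RNA-seq libraries from a mouse glioma line and a mouse macrophage line. The genes were taken by symbol from a deposited table of read counts for 21669 genes. All 32 have a row there, 1 of them (Msmo1) under a newer symbol than the one listed (Sc4mol). They were sorted by textbook role into 4 groups: 8 genes of the mevalonate steps, 11 of the steps from farnesyl diphosphate through squalene to cholesterol, 4 regulators and sterol carriers, and 9 of fatty acid synthesis, desaturation and activation.

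K-Luc is a KR158B glioma line that expresses luciferase, and RAW-Blue is a line of RAW macrophages that carries a secreted phosphatase reporter for NF-kB and AP-1. The cells settled for 24 h around a culture insert and were then treated, K-Luc for 17 to 19 h and RAW-Blue for 47 to 50 h. Water was the untreated control. The other cells received the oligonucleotide CpG-28 (CpG), single-walled carbon nanotubes that lipid-PEG keeps in solution (SWNT/LP), both of these at once (CpG+SWNT/LP), or nanotubes dispersed in CpG-28 itself (SWNT/CpG), with each ingredient at 10 µg/mL. K-Luc had 2 untreated libraries and 3 of each treatment, RAW-Blue 2 of every group. The insert held the RAW-Blue cells on its inside alone, while K-Luc was plated inside and outside it. Line, treatment time and plating therefore cannot be told apart, and no group received an oligonucleotide without CpG.

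Cells make cholesterol from acetyl-CoA by way of mevalonate, farnesyl diphosphate, squalene and lanosterol. Most genes of this chain are switched on together by the transcription factor SREBP-2 (Srebf2) when sterol in the endoplasmic reticulum is scarce, while SREBP-1 (Srebf1) acts more on fatty acid genes, and INSIG1 holds both factors back when sterol is plentiful. In macrophages, signals from innate immune receptors are known to reshape both pathways. Glioma cells are known to depend on cholesterol that they make or import.

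Promoter sequence is shown because many of these genes are known to be read with the help of NF-Y, a factor that binds the letters CCAAT beside SREBP sites. RefSeq promoter windows on GRCm38.p6, of 300 bases (250 before to 50 after the start), were matched by symbol for 25 of the 32 genes, which have 30 windows. The deposited counts were made on mm9, so these coordinates serve the sequences only. Below are the 250 bases before the start, 5′ to 3′ on the gene's strand, of 4 genes that moved in opposite directions in the lines under SWNT/CpG and of Acsbg1, the member with the widest changes. Capitals mark CCAAT or its reverse complement ATTGG. They belong to Mvd (chr8:122443423-122443672, minus strand), Cyp51 (chr5:4104698-4104947, minus strand), Nsdhl (chrX:72918271-72918520, plus strand), Insig1 (chr5:28071162-28071411, plus strand) and Acsbg1 (chr9:54661886-54662135, minus strand).
Mvd: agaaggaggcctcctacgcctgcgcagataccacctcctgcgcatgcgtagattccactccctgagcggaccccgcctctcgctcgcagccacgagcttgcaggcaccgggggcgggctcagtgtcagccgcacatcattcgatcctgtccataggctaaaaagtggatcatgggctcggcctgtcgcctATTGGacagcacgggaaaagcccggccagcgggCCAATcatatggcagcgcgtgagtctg
Cyp51: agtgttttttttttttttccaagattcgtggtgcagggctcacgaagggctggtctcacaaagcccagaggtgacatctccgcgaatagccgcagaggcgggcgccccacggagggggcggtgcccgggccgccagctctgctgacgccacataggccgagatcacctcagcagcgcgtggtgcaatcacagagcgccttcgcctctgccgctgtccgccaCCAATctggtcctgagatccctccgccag
Nsdhl: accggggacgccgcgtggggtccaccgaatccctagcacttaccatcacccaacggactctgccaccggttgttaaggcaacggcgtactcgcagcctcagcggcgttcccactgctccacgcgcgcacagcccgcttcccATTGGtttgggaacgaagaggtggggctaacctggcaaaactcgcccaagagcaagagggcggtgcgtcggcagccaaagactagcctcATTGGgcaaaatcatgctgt
Insig1: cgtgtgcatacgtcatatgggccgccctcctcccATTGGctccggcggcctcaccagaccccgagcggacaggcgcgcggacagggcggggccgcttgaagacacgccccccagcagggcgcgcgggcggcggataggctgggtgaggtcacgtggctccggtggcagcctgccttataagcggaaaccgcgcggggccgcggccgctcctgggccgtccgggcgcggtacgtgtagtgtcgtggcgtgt
Acsbg1: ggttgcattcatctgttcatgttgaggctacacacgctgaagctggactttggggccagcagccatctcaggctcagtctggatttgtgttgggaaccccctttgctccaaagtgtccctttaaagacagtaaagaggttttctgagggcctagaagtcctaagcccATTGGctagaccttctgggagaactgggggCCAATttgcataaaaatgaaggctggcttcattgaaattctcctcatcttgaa
CCAAT, on either strand, was in 22 of the 30 windows (73.3%), against 37.4% of all 32851 windows in the table. Counted by gene, 21 of 25 members (84%) held it in at least 1 window, against 41.1% of all genes and 42.9% of genes that average at least 1000 counts here. Acat2, Acaca, Elovl6 and Fads2 held none. Pmvk, which also moved in opposite directions but is not shown above, held it in only 1 of its windows. The letters TCACNCCAC, a form of the sterol regulatory element, were searched on both strands and stood in 1 member window (3.33%, that of Hmgcs1), against 1.24% of all windows. These are letter matches in fixed windows, given as a description.

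The library totals ran from 13.3 to 24.1 M counts. Levels below are CPM (counts scaled to library size) after TMM, changes are log2 fold changes ± SE from edgeR, and a gene was called where edgeR's quasi-likelihood test gave an adjusted p under 0.05 over all tested genes. The RAW-Blue untreated pair stood apart from the other pairs: the SD of log2 differences between its libraries was 0.369, against 0.136 to 0.167 in the other RAW-Blue pairs and 0.104 to 0.197 in all K-Luc pairs. RAW-Blue results are therefore also given without untreated replicate 1 or replicate 2. In K-Luc, untreated, CpG+SWNT/LP and SWNT/CpG replicate 1 are labelled run 1 and all other libraries run 2, and the run term was called for 1 of 31 members (3.23%), Idi1, against 17.4% of all genes. Macrophage markers were present at 1 CPM or more for 9 of 9 genes in RAW-Blue (summed level 4860 to 5600 CPM) and 2 of 9 in K-Luc (11.3 to 16.9 CPM). Of 8 glial markers, 3 reached 1 CPM in K-Luc (summed 290 to 387 CPM), with Gfap, Olig2, S100b, Fabp7 and Nfia under it, and of 6 fibroblast and vessel markers Pdgfra and Pdgfrb did (summed 401 to 705 CPM).

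In untreated cells, every member except Hmgcs1 had counts in both lines. On the RPKM scale, which is per transcript length and allows genes to be compared, the stearoyl-CoA desaturase gene Scd2 stood highest, at 354.8 and 464.4 RPKM in the K-Luc libraries and 299.4 and 336.5 in RAW-Blue. Next in K-Luc came Scd1 (77.2 and 99.3 RPKM), the squalene epoxidase gene Sqle (84.2 and 87.0), the ATP-citrate lyase gene Acly (80.3 and 87.5) and the desaturase gene Fads1 (74.8 and 91.0), whose ranges overlap. In RAW-Blue, Sqle (92.0 and 106.8 RPKM), Acly (74.9 and 86.7), Fads1 (73.2 and 87.0) and the fatty acid synthase gene Fasn (65.6 and 87.2) followed, the last 3 of them with overlapping ranges. At the low end stood Acsbg1, an acyl-CoA synthetase, at 1.3 RPKM in both K-Luc libraries, and the isopentenyl diphosphate isomerase gene Idi1 at 1.2 and 1.3 RPKM in RAW-Blue. Hmgcs1, the synthase that makes HMG-CoA, is listed at 0 counts in all libraries but RAW-Blue SWNT/LP replicate 2 and SWNT/CpG replicate 2, with 1 count each, and at 0 RPKM throughout. Gapdh, a glycolysis gene that every cell uses, has only 32 to 174 counts a library in the same table, so these values do not show that Hmgcs1 transcripts were absent. Hmgcs1 was not tested, which leaves 31 members in every test. Scd1 and Scd2, and Fads1 and Fads2, are related copies. How the counting treated reads that match both copies is not given, so their single values are less certain.

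**Figure D1:**
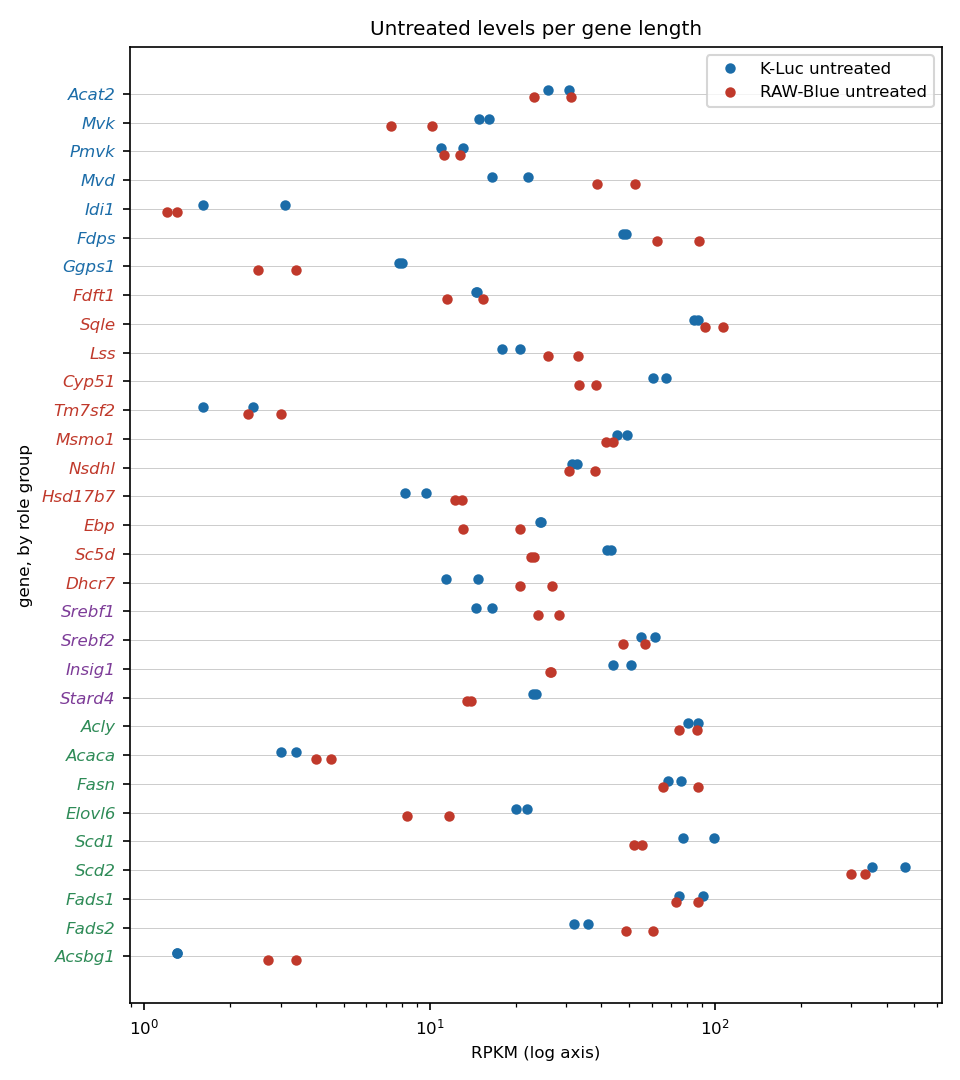
Level of each gene in the untreated libraries, in RPKM on a log axis, with 1 point per library (K-Luc blue, RAW-Blue red) and gene names coloured by role group. Scd2 is highest in both lines, and Idi1, Tm7sf2 and Acsbg1 lie near the low end in both.

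Between the untreated lines, RAW-Blue had 11 of 31 members higher and 9 lower than K-Luc (77.9% of all genes were called, 37% higher and 40.9% lower), with a median of 0.15 against -0.05 over all genes. Mvd, which makes isopentenyl diphosphate, was at 157 and 115 CPM in RAW-Blue and 62.2 and 46.3 in K-Luc (1.47 ± 0.15, adjusted p = 1.62e-08). Srebf1 was at 197 and 165 against 107 and 93.9 CPM (0.95 ± 0.09, adjusted p = 1.83e-09). Both genes were thus higher in each RAW-Blue library than in either K-Luc library. Ggps1, which makes the geranylgeranyl chain of prenylated proteins, ran the other way, at 18.2 and 25.2 CPM in RAW-Blue and 54.9 and 54.0 in K-Luc (-1.23 ± 0.10, adjusted p = 9.11e-11). Sc5d, a desaturase late in sterol synthesis, was at 85.5 and 87.1 against 146 and 152 CPM (-0.75 ± 0.07, adjusted p = 2.65e-09), and the sterol carrier gene Stard4 at 73.7 and 75.9 against 119 and 117 CPM (-0.62 ± 0.06, adjusted p = 7.13e-09). The share of members called was below that of all genes. Dhcr7 (1.12 ± 0.14), Lss (0.78 ± 0.11) and Fdps (0.76 ± 0.12) were higher in RAW-Blue, and Elovl6 (-0.88 ± 0.10), Mvk (-0.73 ± 0.13) and Insig1 (-0.63 ± 0.08) lower. Acsbg1 (1.33 ± 0.16) and Fads2 (0.86 ± 0.10) were higher as well. Of the 20 calls, 17 held in all 10 other settings run.

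In K-Luc cells given SWNT/CpG, most squalene to cholesterol genes and some mevalonate genes rose, while 2 fatty acid genes fell. Of 31 members 13 were higher and 2 lower than in untreated cells (43.1% of all genes were called, 21.8% higher and 21.3% lower). Their median was 0.14, against 0.01 over all genes. The rise lay in the squalene to cholesterol group, with 9 of 11 higher and none lower (median 0.26), and in 3 of the 7 mevalonate genes. As a group the mevalonate genes overlapped untreated cells. Their median log2 ratio to the untreated mean was 0.113, 0.127 and 0.015 in the SWNT/CpG libraries, against 0.113 and -0.122 in the untreated ones. Of the regulators 1 of 4 was higher, and of the fatty acid genes 2 of 9 were lower and none higher. In such bulk libraries, fewer cells of a kind and less RNA per cell cannot be told apart.

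Ebp, the sterol isomerase, was at 64.5 and 63.8 CPM in untreated and 88.7, 93.3 and 96.2 CPM in SWNT/CpG cells (0.54 ± 0.05, adjusted p = 1.07e-06). Hsd17b7, a reductase that removes a keto group during demethylation of the sterol ring, was at 73.3 and 61.7 against 102, 99.1 and 103 CPM (0.62 ± 0.07, adjusted p = 1.60e-06). Cyp51, the lanosterol demethylase, was at 440 and 399 against 502, 517 and 515 CPM (0.30 ± 0.05, adjusted p = 6.9e-05). For these genes every SWNT/CpG library lay above both untreated libraries. Msmo1, the methylsterol oxidase, was at 331 and 308 against 358, 357 and 368 CPM (0.20 ± 0.04, adjusted p = 0.00213). Insig1 was at 203 and 176 against 246, 241 and 248 CPM (0.40 ± 0.07, adjusted p = 0.000171), again with no overlap. Libraries did not overlap for 15 members on the higher side and 4 on the lower, where 28.6% and 27.9% of all genes did so.

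The remaining rises were Mvd (0.55 ± 0.12, adjusted p = 0.00227), Tm7sf2 (0.50 ± 0.18), Nsdhl (0.35 ± 0.09), Pmvk (0.28 ± 0.11), Lss (0.26 ± 0.08), Fdps (0.23 ± 0.07), Sqle (0.18 ± 0.05) and Fdft1 (0.14 ± 0.05, adjusted p = 0.0448). They span phosphomevalonate kinase (Pmvk) and the synthases of farnesyl diphosphate, squalene and lanosterol (Fdps, Fdft1 and Lss). A reductase (Tm7sf2) and a dehydrogenase (Nsdhl) of the later sterol steps were also among them. Elovl6, which lengthens palmitate, fell from 201 and 185 CPM to 153, 156 and 159 CPM (-0.28 ± 0.05, adjusted p = 0.000427). Acaca, the acetyl-CoA carboxylase that commits carbon to fatty acids, fell as well (-0.23 ± 0.08, adjusted p = 0.0202). Srebf2 was at 515 and 461 against 521, 530 and 539 CPM and Srebf1 at 107 and 93.9 against 100, 89.8 and 94.7 CPM, and neither was called. Scd1 was at 724 and 564 against 676, 591 and 594 CPM and Scd2 at 3816 and 2925 against 3412, 3106 and 3157 CPM, with overlapping libraries. Fads1 (541 and 446 against 556, 531 and 554 CPM) and Fads2 (201 and 180 against 210, 207 and 218 CPM) were not called either.

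Without K-Luc untreated replicate 2, which leaves 1 untreated library of run 1, fewer members and fewer of all genes were called. The median of the members was then 0.08, and it was 0.21 without untreated replicate 1. Ebp, Hsd17b7, Cyp51, Insig1 and Elovl6 were called in all 11 other settings run. Fibroblast and vessel markers summed to 407 to 483 CPM in untreated and 662 to 705 CPM in SWNT/CpG cells, with Pdgfra and Pdgfrb the 2 of 6 at 1 CPM or more, and glial markers to 350 to 387 and 308 to 323 CPM. The part of these in the result was not tested.

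In K-Luc cells given free CpG, 4 of the 9 fatty acid genes fell and few sterol genes were called. CpG gave 1 member higher and 7 lower (36.2% of all genes called, 17.9% higher and 18.4% lower), with a median of -0.03 against 0.01 over all genes. CpG+SWNT/LP likewise gave 1 higher and 7 lower (33.9% called, 16.1% higher and 17.8% lower), with a median of 0.01 against 0.01. With the main settings, the share of members called was below that of all genes in both. Both comparisons share the untreated libraries. The fatty acid genes that fell numbered 4 in each, and of the 11 squalene to cholesterol genes 1 rose and 1 fell in each.

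Acsbg1 changed most. It was at 5.24 and 5.38 CPM in untreated K-Luc, at 1.96, 1.78 and 1.94 CPM with CpG (-1.55 ± 0.17, adjusted p = 9.66e-06) and at 1.75, 1.84 and 2.48 CPM with CpG+SWNT/LP (-1.40 ± 0.16, adjusted p = 1.78e-05). With SWNT/CpG it was at 4.47, 4.97 and 5.10 CPM, and with SWNT/LP at 4.25, 4.73 and 5.33 CPM, and neither was called. All 6 libraries with free CpG were thus below every other K-Luc library. Elovl6 was at 164, 155 and 156 CPM with CpG (-0.24 ± 0.06, adjusted p = 0.00326) and 176, 156 and 164 CPM with CpG+SWNT/LP (-0.21 ± 0.05, adjusted p = 0.00645), below both untreated values. Fasn was at 1136 and 1024 CPM untreated, 932.3, 838.8 and 872.2 CPM with CpG (-0.30 ± 0.08, adjusted p = 0.00695) and 912.1, 911.4 and 964.5 CPM with CpG+SWNT/LP (-0.21 ± 0.07, adjusted p = 0.0297). Acaca was at 59.8 and 54.0 CPM untreated, 51.9, 43.5 and 45.9 CPM with CpG (-0.25 ± 0.08) and 46.2, 45.4 and 48.0 CPM with CpG+SWNT/LP (-0.28 ± 0.07). The carboxylase, the synthase and the elongase of fatty acid synthesis therefore fell in both treatments.

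Stard4 fell to 101, 103 and 101 CPM with CpG (-0.22 ± 0.05, adjusted p = 0.00177) and to 106 CPM in each CpG+SWNT/LP library (-0.15 ± 0.04, adjusted p = 0.0125). Sc5d fell from 146 and 152 CPM to 130, 138 and 133 CPM with CpG (-0.17 ± 0.05) and 139, 135 and 136 CPM with CpG+SWNT/LP (-0.12 ± 0.04). Hsd17b7 was the rise in both, at 79.2, 75.1 and 78.3 CPM (0.27 ± 0.07, adjusted p = 0.00653) and 82.0, 76.2 and 74.6 CPM (0.23 ± 0.07, adjusted p = 0.0116). Without the run term in the model, no member was called higher in either comparison. The last call was Acat2 for CpG (-0.29 ± 0.09), the thiolase that opens the pathway, and Idi1 for CpG+SWNT/LP (-0.36 ± 0.13), whose untreated libraries differ widely at 13.4 and 6.86 CPM. Leaving out 1 library moved the median between -0.11 and 0.03 for CpG and between -0.06 and 0.06 for CpG+SWNT/LP. Each was lowest without K-Luc untreated replicate 2 and highest without untreated replicate 1. The fewest calls came without untreated replicate 2 for CpG and without untreated replicate 1 for CpG+SWNT/LP. With run 2 alone there were 5 and 3 calls. Acsbg1 was called in every setting of both comparisons.

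SWNT/LP alone gave no called member in K-Luc by edgeR (0.129% of all genes called), and none by DESeq2. At an unadjusted p under 0.05 there were 4 of 31, 12.9% against 4.33% of all genes. Their values were small and mostly above 0: 29 of 31 were positive, with a median of 0.10 against 0.00 over all genes and a range of -0.22 (Acsbg1) to 0.22 (Mvd). Without K-Luc untreated replicate 2 the median was 0.01.

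**Figure D2:**
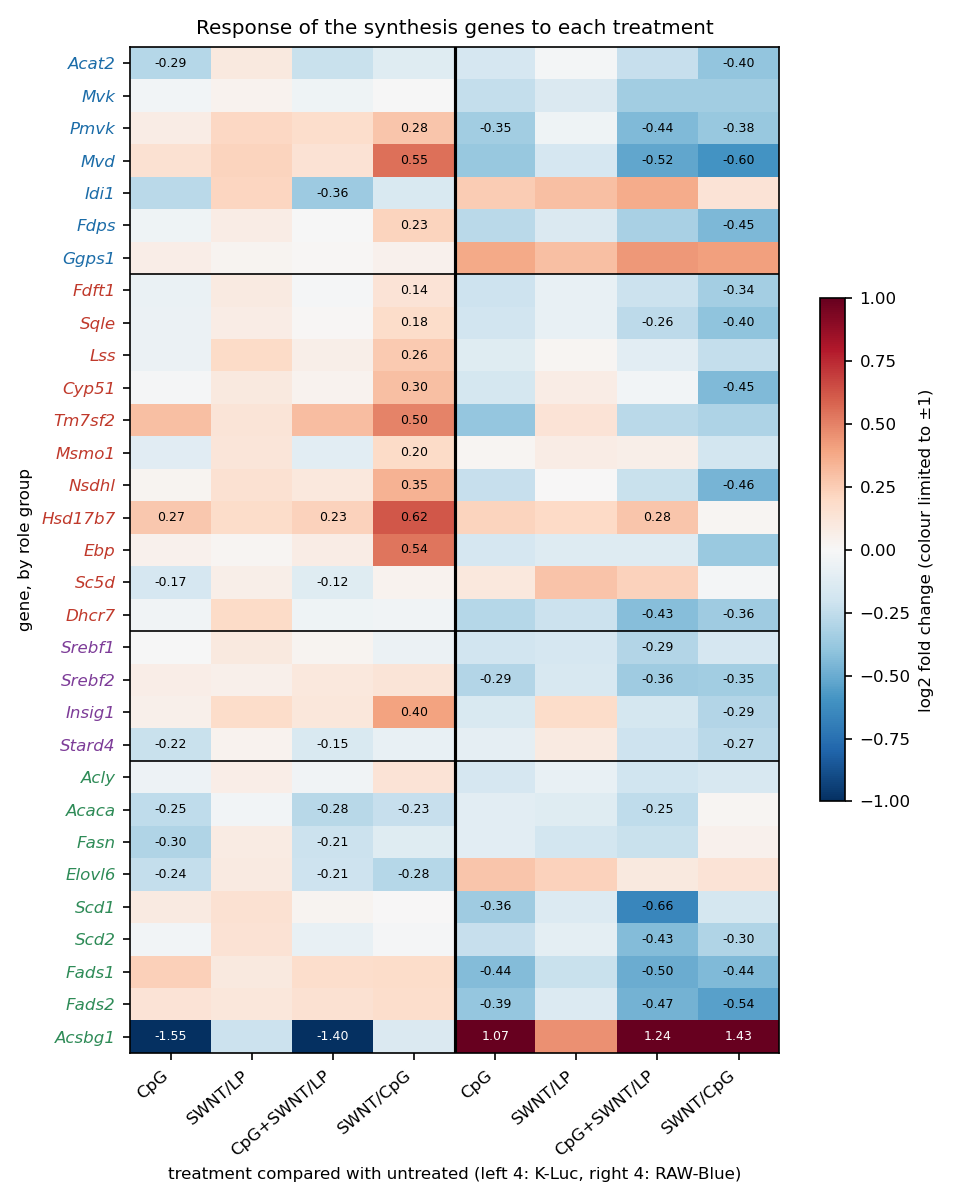
Log2 fold change against untreated for 31 members (rows, by role group) and 4 treatments in K-Luc (left) and RAW-Blue (right), in colour limited to 1 either way, with the value printed where the gene was called. The SWNT/CpG column is mostly red through the sterol genes in K-Luc and mostly blue in RAW-Blue, and Acsbg1 has the reverse colours under CpG and CpG+SWNT/LP.

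Within K-Luc, most squalene to cholesterol genes were also higher with SWNT/CpG than with CpG+SWNT/LP or CpG. These groups differ in more than whether CpG is joined to the nanotubes: CpG+SWNT/LP also holds lipid-PEG, which SWNT/CpG lacks, and CpG has no nanotubes, so these factors cannot be told apart. Against CpG+SWNT/LP 13 members were higher and none lower (17.7% of all genes called, 8.54% higher and 9.12% lower), with a median of 0.15 against 0.00 over all genes. Against CpG 15 were higher and none lower (14.9% called, 7.29% higher and 7.58% lower), with a median of 0.18 against -0.01. Neither comparison uses the untreated libraries, but both use the SWNT/CpG ones. The squalene to cholesterol group had 8 of 11 and 9 of 11 higher, and the mevalonate group 2 of 7 in each.

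Ebp was at 68.6, 65.4 and 68.6 CPM with CpG+SWNT/LP and 66.3, 64.4 and 67.7 CPM with CpG, all below the SWNT/CpG libraries (0.46 ± 0.05, adjusted p = 4.12e-06, and 0.50 ± 0.05, adjusted p = 4.46e-06). Msmo1 was at 308, 293 and 281 CPM with CpG+SWNT/LP and 293, 285 and 285 CPM with CpG (0.30 ± 0.04, adjusted p = 5.66e-05, and 0.31 ± 0.04, adjusted p = 6.54e-05). Cyp51 was at 443, 422 and 415 and at 410, 403 and 407 CPM (0.26 ± 0.04, adjusted p = 0.000209, and 0.32 ± 0.04, adjusted p = 6.92e-05). In none of these 3 genes did a SWNT/CpG library overlap the others. Insig1 was at 215, 192 and 194 CPM with CpG+SWNT/LP and 196, 186 and 180 CPM with CpG (0.29 ± 0.06 and 0.35 ± 0.06), and Hsd17b7 differed by 0.39 ± 0.06 and 0.35 ± 0.06. Acsbg1 had the widest difference, 1.26 ± 0.14 (adjusted p = 1.72e-05) and 1.40 ± 0.15 (adjusted p = 1.01e-05). Against untreated, as given above, its SWNT/CpG value of -0.14 was not called. Acly was also higher (0.17 ± 0.05 and 0.18 ± 0.05), and Fdps, Mvd, Sqle, Fdft1, Sc5d and Nsdhl were called in both comparisons. Lss and Stard4 were called against CpG alone, and whether those differences depend on SWNT/LP was not tested. With 1 library left out, 7 to 14 and 9 to 18 members were called, the fewest in each case without SWNT/CpG replicate 2.

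**Figure D3:**
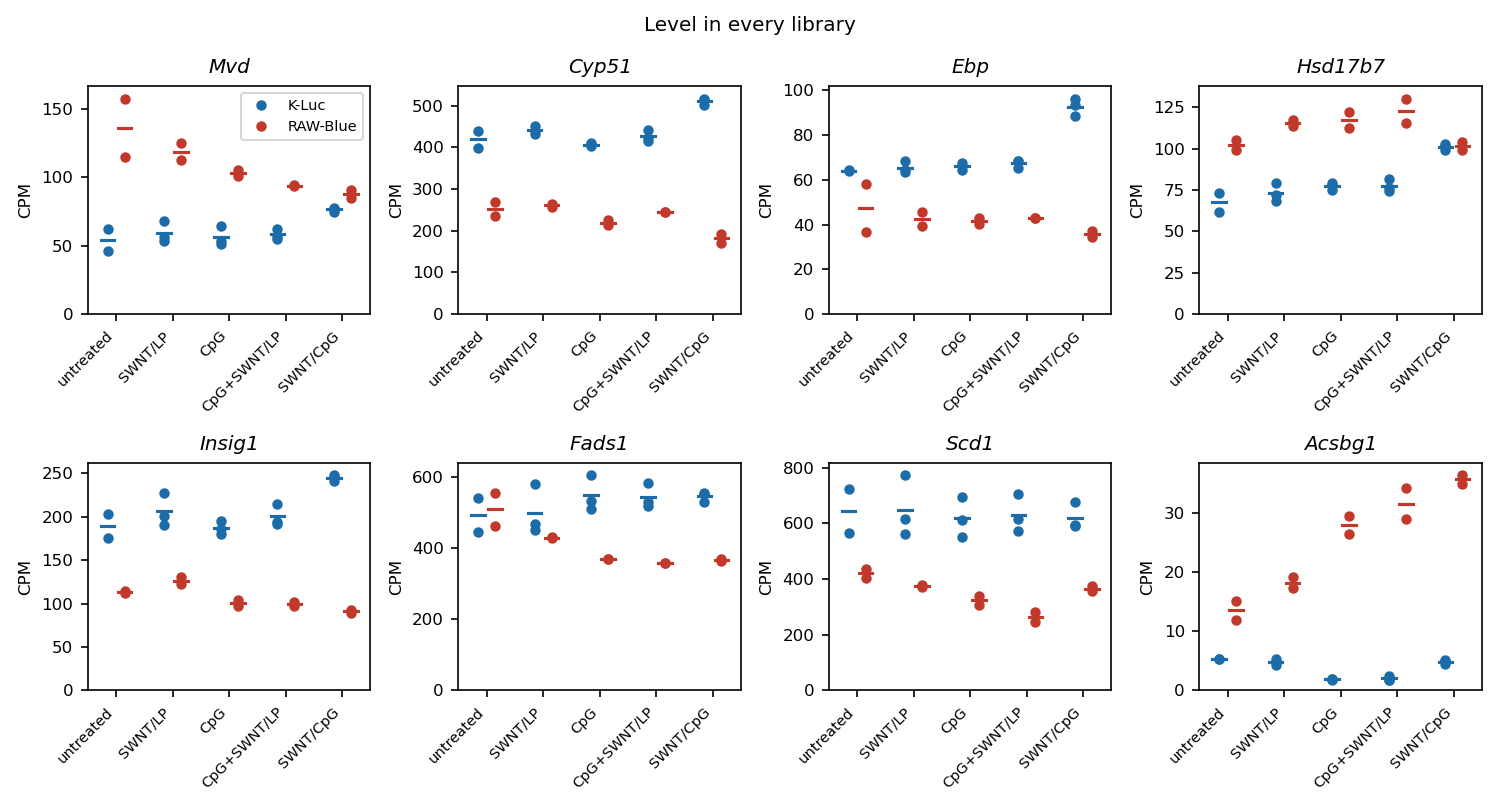
CPM of 8 members in every library, by treatment, with 1 point per library and a bar at the group mean (K-Luc blue, RAW-Blue red). In K-Luc the SWNT/CpG points of Cyp51, Ebp, Hsd17b7 and Insig1 lie above all others, and in RAW-Blue the points of Acsbg1 lie higher in each group that received CpG.

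In RAW-Blue cells given SWNT/CpG, 15 members from sterol synthesis, its regulators and the desaturases fell, and Acsbg1 rose. Of 31 members 1 was higher and 15 lower than in untreated cells (23.2% of all genes called, 12.8% higher and 10.4% lower), with a median of -0.30 against 0.00 over all genes. The falls took in 4 of 7 mevalonate genes, 5 of 11 squalene to cholesterol genes, 3 of 4 regulators and sterol carriers and 3 of 9 fatty acid genes. Libraries were all lower for 21 members (28.2% of all genes) and all higher for 3 (26.2%).

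Cyp51 was at 269 and 234 CPM in untreated and 172 and 192 CPM in SWNT/CpG cells (-0.45 ± 0.08, adjusted p = 0.00363). Sqle was at 474 and 405 against 326 and 328 CPM (-0.40 ± 0.08, adjusted p = 0.00425). Mvd was at 157 and 115 against 85.0 and 90.9 CPM (-0.60 ± 0.12, adjusted p = 0.00514). In all 3 the treated libraries lay below both untreated ones, though the untreated Mvd values differ by more than the treated values differ from the lower of them. Nsdhl (137 and 109 against 83.0 and 92.1 CPM, -0.46 ± 0.09), Fdps (173 and 122 against 99.0 and 113 CPM, -0.45 ± 0.13), Pmvk (35.3 and 30.6 against 23.3 and 26.2 CPM, -0.38 ± 0.10) and Fdft1 (92.1 and 68.5 against 59.8 and 64.5 CPM, -0.34 ± 0.11) fell too. Acat2 (-0.40 ± 0.12) and Dhcr7 (-0.36 ± 0.10), which act at the first and the last step, completed these falls. Srebf2 was at 514 and 424 against 360 and 365 CPM (-0.35 ± 0.08, adjusted p = 0.0106), Insig1 at 114 and 113 against 92.8 and 89.3 CPM (-0.29 ± 0.07, adjusted p = 0.0149), and Stard4 fell by 0.27 ± 0.08 on the log2 scale. Srebf1 was not called (197 and 165 against 168 and 148 CPM). As with Mvd, the untreated values of Nsdhl, Fdps, Fdft1 and Srebf2 differ by more than the treated values differ from the lower of them.

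Fads1 and Fads2, the desaturases of polyunsaturated fatty acids, were at 555 and 464 against 371 and 365 CPM (-0.44 ± 0.07, adjusted p = 0.00245) and at 364 and 289 against 218 and 222 CPM (-0.54 ± 0.09, adjusted p = 0.00195). Scd2 was at 2972 and 2625 against 2335 and 2123 CPM (-0.30 ± 0.07, adjusted p = 0.0164), while Scd1, at 436 and 404 against 375 and 357 CPM, was not called. Acsbg1 was at 15.2 and 11.9 against 36.3 and 35.0 CPM (1.43 ± 0.13, adjusted p = 6.37e-05). No treated library of these called genes overlapped the untreated pair. For Fads2, though, the untreated values differ by more than the treated values differ from the lower of them. Without RAW-Blue untreated replicate 1, 2 members were higher and 14 lower. There Mvd differed by -0.39 (adjusted p = 0.000658), Cyp51 by -0.37 (adjusted p = 0.000539) and Fads2 by -0.40 (adjusted p = 4.27e-05), while Acat2 (-0.19, adjusted p = 0.0681) and Fdft1 (-0.14, adjusted p = 0.128) were no longer called. Without untreated replicate 2 there were 26 calls, and without SWNT/CpG replicate 1 there were 5.

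In RAW-Blue, desaturase genes and Srebf2 also fell with free CpG. CpG gave 1 higher and 5 lower (10.8% of all genes called, 5.18% higher and 5.6% lower), with a median of -0.18 against 0.01 over all genes. CpG+SWNT/LP gave 2 higher and 11 lower (20.3% called, 10.1% in each direction), with a median of -0.22 against 0.00. Of the 9 fatty acid genes 3 and 5 fell, and of the 11 squalene to cholesterol genes none and 2 fell. All RAW-Blue treatments were compared with the same untreated pair.

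Fads1 was at 371 and 370 CPM with CpG (-0.44 ± 0.07, adjusted p = 0.00603) and 358 and 357 CPM with CpG+SWNT/LP (-0.50 ± 0.07, adjusted p = 0.0017). Fads2 was at 250 and 241 CPM (-0.39 ± 0.09, adjusted p = 0.0215) and 237 and 230 CPM (-0.47 ± 0.09, adjusted p = 0.00531). Scd1 was at 308 and 339 CPM (-0.36 ± 0.08, adjusted p = 0.0235) and 247 and 283 CPM (-0.66 ± 0.08, adjusted p = 0.000672). Each of these libraries was below both untreated ones. Scd2 was at 2343 and 2366 CPM with CpG, not called, and at 2004 and 2114 CPM with CpG+SWNT/LP (-0.43 ± 0.07, adjusted p = 0.00379). Srebf2 was at 377 and 378 CPM (-0.29 ± 0.08, adjusted p = 0.0414) and 367 and 360 CPM (-0.36 ± 0.08, adjusted p = 0.0114). Pmvk was at 24.6 and 26.3 CPM (-0.35 ± 0.10, adjusted p = 0.046) and 23.6 and 24.6 CPM (-0.44 ± 0.10, adjusted p = 0.0112). Acsbg1, the one rise with CpG, was at 26.4 and 29.5 CPM (1.07 ± 0.13, adjusted p = 0.000923), and with CpG+SWNT/LP at 29.0 and 34.1 CPM (1.24 ± 0.13, adjusted p = 0.000206).

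With CpG+SWNT/LP, Mvd (94.2 and 93.3 CPM, -0.52 ± 0.12), Dhcr7 (-0.43 ± 0.10), Srebf1 (145 and 148 CPM, -0.29 ± 0.09), Sqle (370 and 360 CPM, -0.26 ± 0.07) and Acaca (-0.25 ± 0.08) were lower and Hsd17b7 (0.28 ± 0.08) higher. Insig1 was not called in either treatment, at 104 and 97.1 CPM with CpG and 102 and 97.8 CPM with CpG+SWNT/LP. Without RAW-Blue untreated replicate 1, 2 members were higher and 4 lower with CpG, and 2 higher and 11 lower with CpG+SWNT/LP. With 1 library left out the medians ran from -0.29 to -0.08 with CpG and from -0.39 to -0.11 with CpG+SWNT/LP. Each was lowest without untreated replicate 2 and highest without untreated replicate 1. The fewest members were called without CpG replicate 1 and without CpG+SWNT/LP replicate 2. Acsbg1 in both treatments, and Fads1, Scd1 and Scd2 with CpG+SWNT/LP, were called in all 8 other settings run.

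SWNT/LP alone gave no called member in RAW-Blue by edgeR (0.478% of all genes called) or by DESeq2, with 5 of 31 at an unadjusted p under 0.05 (16.1%, against 12.7% of all genes). The median was -0.07 against 0.01 over all genes. Acsbg1, at 17.2 and 19.2 CPM, had the value farthest from 0, 0.46. Without RAW-Blue untreated replicate 1 it was the 1 call (0.60, adjusted p = 0.0248), and without replicate 2 there were 18 calls. SWNT/CpG against CpG+SWNT/LP gave 1 call, Scd1 (0.48 ± 0.08, adjusted p = 0.0419), where 0.825% of all genes were called, 0.469% higher and 0.356% lower. It was at 375 and 357 against 247 and 283 CPM and was lost without any one of these libraries. Against CpG no member was called by edgeR (0.842% of all genes called) or by DESeq2. An unadjusted p under 0.05 was reached by 7 (22.6%, against 12.8% of all genes). The squalene to cholesterol genes were mostly below 0 in both, 10 of 11 in each, with medians of -0.24 and -0.20, but none was called.

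**Figure D4:**
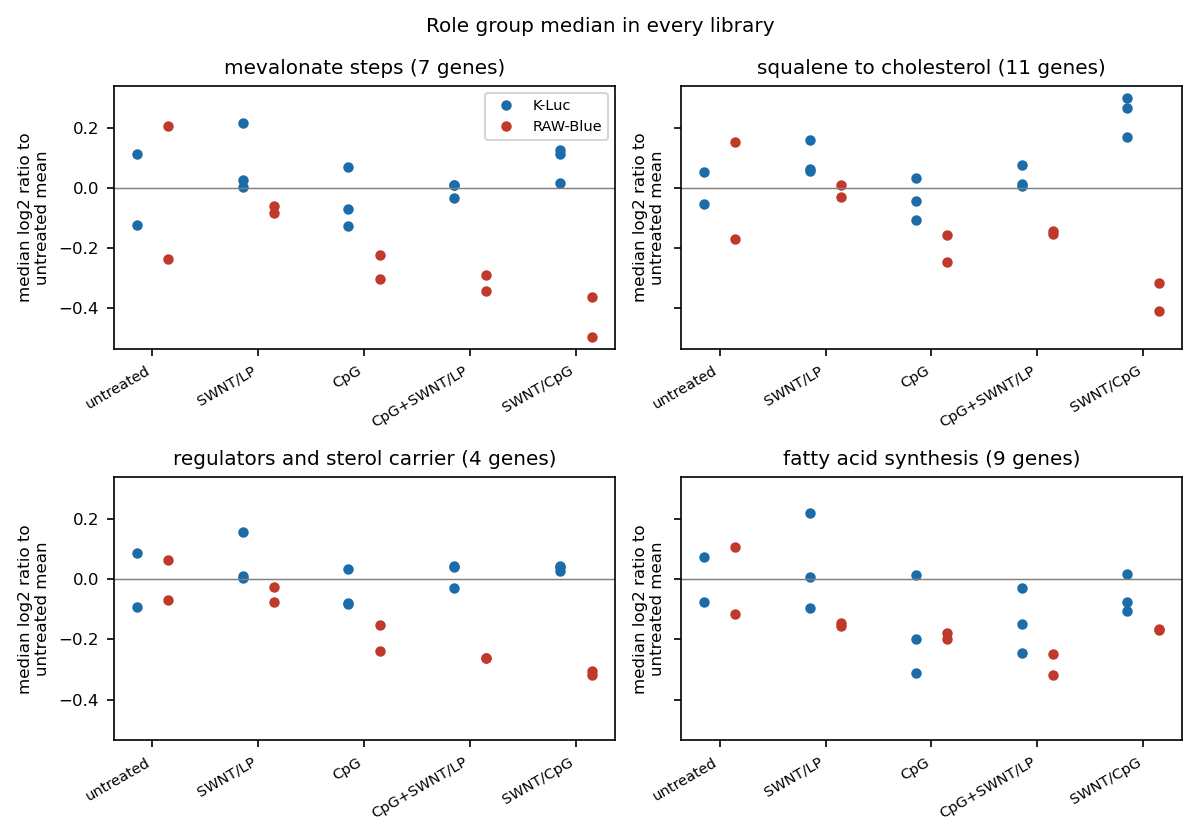
Median over each role group of the log2 ratio to the mean of the line's untreated libraries, with 1 point per library (K-Luc blue, RAW-Blue red). The squalene to cholesterol medians of the SWNT/CpG libraries lie above 0 in K-Luc and below 0 in RAW-Blue, and the RAW-Blue untreated libraries lie on both sides of 0.

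The lines moved in opposite directions under SWNT/CpG. In all, 8 of 31 members (25.8%) were called higher in K-Luc and lower in RAW-Blue, where 2.72% of the 10576 genes tested in both lines were. They were Pmvk, Mvd, Fdps, Fdft1, Sqle, Cyp51, Nsdhl and Insig1, with K-Luc and RAW-Blue values of 0.28 and -0.38, 0.55 and -0.60, 0.23 and -0.45, 0.14 and -0.34, 0.18 and -0.40, 0.30 and -0.45, 0.35 and -0.46, and 0.40 and -0.29. None was called in the reverse directions (1.93% of all genes). By sign alone, 18 were above 0 in K-Luc and below 0 in RAW-Blue, and 5 the reverse. Over the 10576 genes tested in both lines, these numbers were 2473 and 2514. The members were chosen with earlier results of these data known, so these shares are given as a description.

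The K-Luc levels behind these calls were close together. Mvd rose from 62.2 and 46.3 to 74.8, 77.8 and 76.8 CPM. Sqle rose from 359 and 349 to 369, 418 and 426 CPM, and Nsdhl from 109 and 106 to 123, 143 and 141 CPM. Fdps rose from 89.1 and 87.9 to 95.7, 107 and 108 CPM, Pmvk from 33.6 and 28.3 to 36.7, 36.4 and 35.8 CPM, and Fdft1 from 81.2 and 81.0 to 86.8, 91.9 and 87.4 CPM. In each of these 6 genes the K-Luc SWNT/CpG libraries lay above both untreated ones, though some only narrowly. The count of 8 was 7 without K-Luc untreated replicate 1 and 2 (Cyp51 and Insig1) without K-Luc untreated replicate 2. It was 8 without RAW-Blue untreated replicate 1, with Msmo1 in place of Fdft1, and 12 without RAW-Blue untreated replicate 2.

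The difference between the lines was then tested as a contrast of 1 fit over all 24 libraries. For SWNT/CpG 3 members were higher in RAW-Blue minus K-Luc and 17 lower (25.4% of all genes called, 14.4% higher and 11.1% lower), with a median of -0.38 against 0.04 over all genes. Of the 11 squalene to cholesterol genes 9 were lower and none higher. The widest on the lower side were Mvd (-1.15 ± 0.19, adjusted p = 0.000117), Ebp (-0.92 ± 0.17, adjusted p = 0.000306), Nsdhl (-0.81 ± 0.14, adjusted p = 0.000131) and Tm7sf2 (-0.81 ± 0.25, adjusted p = 0.0172). Cyp51 followed at -0.75 ± 0.10 (adjusted p = 3.85e-06). Insig1 differed by -0.70 ± 0.10 (adjusted p = 2.63e-05) and Srebf2 by -0.48 ± 0.10 (adjusted p = 0.0014). Acsbg1 (1.56 ± 0.20, adjusted p = 3.45e-06), Elovl6 (0.42 ± 0.13, adjusted p = 0.0208) and Ggps1 (0.36 ± 0.13, adjusted p = 0.0411) were the 3 on the other side. Of these 3, only Acsbg1 was called in all 15 other settings run. Ebp in RAW-Blue was at 58.3 and 36.7 CPM untreated and 34.5 and 37.1 CPM with SWNT/CpG, with overlapping libraries, and was not called within that line. Of the 20 calls, 15 held in all 15 other settings run, and with 1 library left out 15 to 23 were called.

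**Figure D5:**
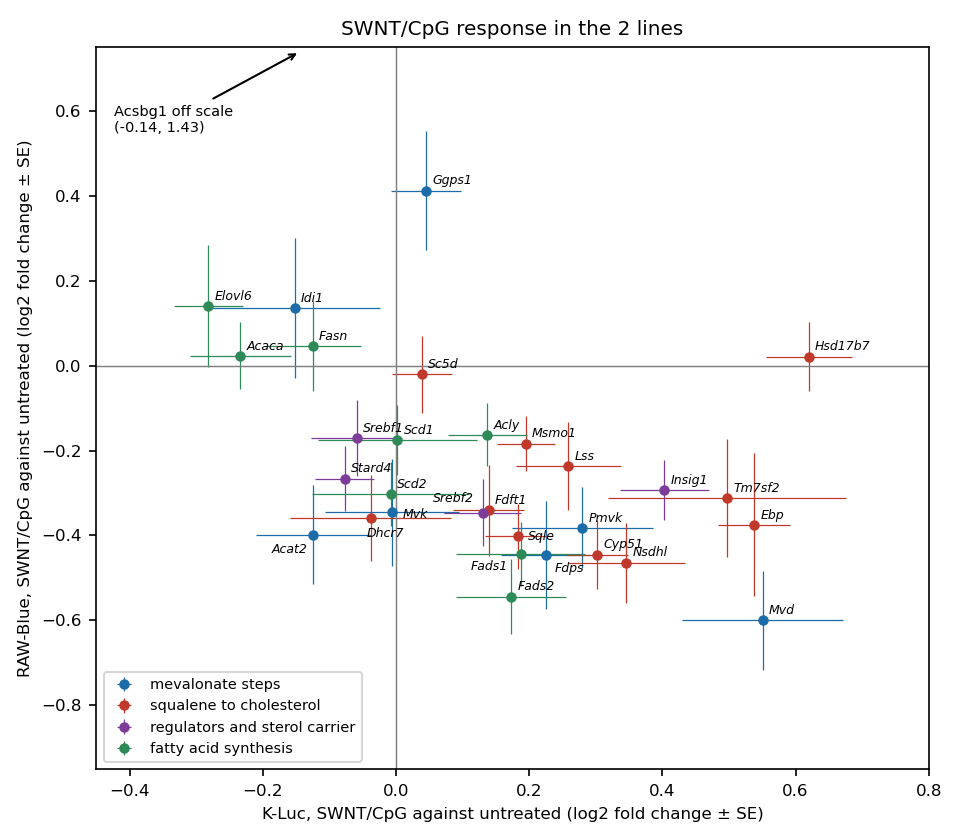
Log2 fold change ± SE under SWNT/CpG against untreated for each member, K-Luc on the horizontal and RAW-Blue on the vertical axis, coloured by role group; Acsbg1 lies above the top. Most sterol synthesis genes lie in the lower right, above 0 in K-Luc and below 0 in RAW-Blue.

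Under free CpG the opposite movement lay in Acsbg1. It was the 1 member called lower in K-Luc and higher in RAW-Blue with CpG (1.29% of all genes) and with CpG+SWNT/LP (2.26%) and none was called the other way round (1.99% and 2.51% of all genes). Without either K-Luc untreated library or RAW-Blue untreated replicate 1 it was again the 1 member. Without RAW-Blue untreated replicate 2 there were 2 with CpG (Elovl6 and Acsbg1) and 3 with CpG+SWNT/LP (Sc5d, Elovl6 and Acsbg1). Its line difference was 2.60 ± 0.22 (adjusted p = 4.46e-08) and 2.63 ± 0.21 (adjusted p = 9.2e-09). Over all members the line difference was called for 2 higher and 5 lower with CpG (21.9% of all genes called, 11.3% higher and 10.6% lower) and for 4 higher and 9 lower with CpG+SWNT/LP (24% called, 12.7% higher and 11.3% lower). Fads1 (-0.70 ± 0.14 and -0.68 ± 0.13), Fads2 (-0.55 ± 0.14 and -0.64 ± 0.13) and Srebf2 (-0.38 ± 0.11 and -0.47 ± 0.10) were lower in both. With SWNT/LP none was called by edgeR (0.187% of all genes) or DESeq2, and 5 had an unadjusted p under 0.05 (16.1%, against 9.82% of all genes). With 1 library left out the medians of the line difference ran from -0.29 to -0.02 for CpG and from -0.40 to -0.06 for CpG+SWNT/LP. For SWNT/LP they ran from -0.35 to -0.01. Each was lowest without RAW-Blue untreated replicate 2, where the most members were called, and highest without RAW-Blue untreated replicate 1. The fewest calls for CpG and CpG+SWNT/LP came without K-Luc untreated replicate 2.

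Genes around the pathway were described from 2 further lists. Of 20 other genes of lipid synthesis, 4 were higher and 4 lower in K-Luc with SWNT/CpG, with a median of 0.04. The share called is near the 43.1% of all genes called there. The called genes include Acss2, which makes acetyl-CoA from acetate (0.63 ± 0.13), and Pdss1, which builds the ubiquinone side chain (-0.76 ± 0.13). With CpG 3 were higher and 4 lower, and with CpG+SWNT/LP 3 higher and 5 lower, again with Acss2 (0.62 ± 0.13 and 0.68 ± 0.12) and Pdss1 (-0.62 ± 0.14 and -0.68 ± 0.13) in front, where 36.2% and 33.9% of all genes were called. In RAW-Blue the list had 1 higher and 1 lower with SWNT/CpG, Acsl4 (0.82 ± 0.19) and Gpam (-0.35 ± 0.08), and 1 higher and 2 lower with CpG+SWNT/LP, where 23.2% and 20.3% of all genes were called. Of 12 genes of sterol sensing and efflux, 9 were tested in K-Luc, where 4 rose and none fell with SWNT/CpG, again near the 43.1% of all genes. They were led by the lysosomal cholesterol exporter Npc1 (0.63 ± 0.11) and by Mylip (0.34 ± 0.10), which degrades the LDL receptor. In RAW-Blue 11 were tested and none rose, while 2 fell with SWNT/CpG, the exporter gene Abcg1 (-0.55 ± 0.14) and Mylip (-0.58 ± 0.18), and 4 with CpG+SWNT/LP, including Abcg1 (-0.72 ± 0.14) and Abca1 (-0.98 ± 0.29), against 23.2% and 20.3% of all genes called in either direction. The counts of both lists are given as a description.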

How the data were processed

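Per the labels' protocols, poly(A) RNA of each culture was made into stranded libraries. The submitters' processing notes name TopHat2 2.0.14 and HTSeq 0.6.0, with mm9 as the build. For annotation and strand setting nothing is given in the sources used here. The authors deposited raw counts per gene and RPKM values that they rounded. RPKM served only to set genes side by side. Library sizes implied by both tables agreed within ratios of 0.938 to 1.1 over 1370 genes above 20 RPKM. No library pair held identical values. Whether replicates came from separate cultures is not in the labels, so p-values measure only the spread between these samples, which may be technical.

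The tests used edgeR 4.0.16 under R 4.3.3, with TMM scaling, filterByExpr by group (minimum count 10, minimum total 15), robust quasi-likelihood F tests, and p-values adjusted by Benjamini-Hochberg across every tested gene (calls under 0.05). All groups of a line shared 1 fit. The K-Luc fit had group and run (14 libraries, 12420 genes), the RAW-Blue fit group (10 libraries, 11514 genes), and the joint fit group and run (24 libraries, 13350 genes). SE is the log2 fold change over the square root of F. On simulated counts, the K-Luc SWNT/CpG test recovered 35.8% of log2 changes of 0.25 and 100% of 0.5. The RAW-Blue test recovered 4.48% and 47.8%, and the line difference 1.49% and 8.96%. The simulated spread was set larger for RAW-Blue and the joint fit than for K-Luc, and above the estimate for the joint fit. Far fewer genes were changed than were called in the data, so these shares do not give the power of the tests here. Settings tried besides these: the DESeq2 1.42.0 Wald test, edgeR with DESeq2 size factors, all genes unfiltered, a replicate block, run left out of the model, run 2 libraries alone, and each library omitted in turn. Library values were given for up to 6 called members of smallest adjusted p per comparison, Srebf1, Srebf2, Insig1, Scd1, Scd2, Fads1, Fads2, and members called in opposite directions. Up to 4 called genes of each further list could be named. Members and lists were chosen with earlier results of these data known. Values of 1 gene counted in the further lists are not reported here.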

Additional observations from a re-analysis of the deposited data

Results flagged for a closer look

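For 40 values, the response to a treatment differed between the lines in the joint edgeR fit (adjusted p under 0.05). Each is the RAW-Blue log2 fold change minus that of K-Luc. Of 31 members, 7 were called with CpG, 13 with CpG+SWNT/LP and 20 with SWNT/CpG. Over all genes, 21.9%, 24% and 25.4% were called, so the CpG share was near that of all genes. Line, treatment time and plating cannot be told apart, so none of these differences can be assigned to the line alone.

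With CpG they were Acsbg1 (2.60), Elovl6 (0.50), Fads1 (-0.70), Fads2 (-0.55), Mvd (-0.55), Scd1 (-0.46) and Srebf2 (-0.38). With CpG+SWNT/LP the mevalonate genes were Idi1 (0.72), Ggps1 (0.41), Pmvk (-0.62) and Mvd (-0.68), and the later sterol genes Sc5d (0.34) and Sqle (-0.28). The regulators Srebf1 (-0.33), Srebf2 (-0.47) and Insig1 (-0.29) were lower, as were Scd1 (-0.69), Fads1 (-0.68) and Fads2 (-0.64), while Acsbg1 (2.63) was higher.

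With SWNT/CpG the mevalonate genes were Mvd (-1.15), Fdps (-0.67), Pmvk (-0.66) and Ggps1 (0.36). The later sterol genes, all lower, were Ebp (-0.92), Nsdhl (-0.81), Tm7sf2 (-0.81), Cyp51 (-0.75), Hsd17b7 (-0.60), Sqle (-0.59), Lss (-0.50), Fdft1 (-0.48) and Msmo1 (-0.38). Insig1 (-0.70), Srebf2 (-0.48), Fads2 (-0.72), Fads1 (-0.63) and Acly (-0.30) were lower too, and Elovl6 (0.42) and Acsbg1 (1.56) higher.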

How the results depend on the processing

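No called member value changed direction in any setting run. Srebf2 between the untreated lines, not called at 0.00, was called at -0.173 without RAW-Blue untreated replicate 1 and not called at 0.096 without replicate 2. Of 155 called values, 151 stayed called with DESeq2 size factors, 144 with no filter, 146 with DESeq2 and 149 with a replicate block, and of 119 that use K-Luc, 102 without the run term and 100 with run 2 alone. Replicate numbers are only shared: same-numbered libraries of K-Luc deviated together with r from -0.02 to 0.44. It was over 0.1 in 20 of 26 pairs, and for RAW-Blue in 2 of 20. The replicate block gave 13 member calls (2 higher, 11 lower) in place of 8 for K-Luc CpG and 16 (6 higher, 10 lower) in place of 8 for K-Luc CpG+SWNT/LP, and moved no other count of members by over 1.5 times. Over all genes, the block called 5134 and 5786 of 12420 for these comparisons. The share of members called was then no longer below that of all genes. Run 2 alone gave 5 (1 higher, 4 lower) and 3 (1 higher, 2 lower) for these, and no run term gave 4 (0 higher, 4 lower) for CpG+SWNT/LP. RAW-Blue SWNT/CpG against CpG+SWNT/LP had 2 calls (1 higher, 1 lower) in place of 1 with no filter and with DESeq2. The causes were not tested. Counts over all genes moved as well when 1 library was left out, so the ranges below do not describe the members alone.

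With 1 library left out, where a lone sample is assumed to vary like the other groups, the members called against untreated ran in K-Luc from 4 to 8 for CpG, 0 to 0 for SWNT/LP, 2 to 6 for CpG+SWNT/LP and 6 to 14 for SWNT/CpG. The RAW-Blue counts, in this order, ran from 1 to 25, 0 to 18, 4 to 26 and 5 to 26. SWNT/CpG against CpG+SWNT/LP and CpG gave 7 to 14 and 9 to 18 for K-Luc and 0 for RAW-Blue, the line differences in the same treatment order 3 to 21, 0 to 15, 6 to 24 and 15 to 23, and the untreated lines 19 to 25.

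Over all genes, K-Luc SWNT/LP had 16 calls, and 27 with no filter, 32 with DESeq2, 61 with the block and 5 in run 2. K-Luc SWNT/CpG against CpG+SWNT/LP had 2194 (4009 with the block, 1177 in run 2), against CpG 1847 (3610 with the block), and CpG+SWNT/LP against untreated 4213 (2043 in run 2). RAW-Blue SWNT/LP had 55 (117 with no filter, 139 with DESeq2), and SWNT/CpG 95 against CpG+SWNT/LP (249 and 246) and 97 against CpG (240 and 238). The line difference had 25 for SWNT/LP (56, 77, 44 with the block, 4 in run 2) and 3199 for CpG+SWNT/LP (2129 in run 2). On simulated counts, small changes in RAW-Blue were less often recovered (4.48% of log2 changes of 0.25) than in K-Luc (35.8%). The simulated RAW-Blue data had both fewer libraries a group and a larger spread, so these cannot be told apart.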
